A study of Rattus norvegicus with 23 samples.

Results

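Elastic fibers were followed through 10 genes that encode their core, their scaffold and the enzymes that cross-link them, in RNA from 4 sites of the rat heart and from the pulmonary artery and vein. A gene was counted as measured where a probe of the array carried an accession that belongs to it, and this held for 8 of the 10 genes: elastin (*Eln*), fibrillin-1 (*Fbn1*), fibulin-1 (*Fbln1*), fibulin-5 (*Fbln5*), the microfibril-associated proteins *Mfap2*, *Mfap4* and *Mfap5*, and the lysyl oxidase-like enzyme *Loxl1*. Fibulin-2 (*Fbln2*) and lysyl oxidase (*Lox*) were matched to no probe and were not analysed here. These 8 were among 16544 genes named on the array, of which 16089 were tested. The tissue was left atrium next to the pulmonary vein (LA, 4 arrays), left ventricle (LV, 4 arrays), free wall of the right ventricle (RV, 3 arrays), the sinoatrial node region (SA, 4 arrays), pulmonary vein (PV, 4 arrays) and pulmonary artery (PA, 4 arrays). All samples came from male Wistar rats of 8 to 11 weeks, 12 rats in all, whose tissue was dissected on ice after the blood was washed out. An SA sample joined the tissue of 2 rats, and per the methods each LV was cut into 3 pieces that served as samples. They are bulk samples of whole tissue, in which fewer cells of a type and less RNA per cell cannot be told apart. The labels number the samples of a region as replicates and do not say which of them came from the same rat, so the p-values measure the spread between these samples.

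An elastic fiber has a core of cross-linked elastin that lies on a scaffold of microfibrils. Fibrillin-1 is the backbone of the microfibril, and the proteins encoded by *Mfap2* and *Mfap5* (MAGP-1 and MAGP-2) bind to it. Fibulins bridge elastin, microfibrils and cells. Lysyl oxidases oxidize lysines of tropoelastin so that the monomers can be joined. In the large arteries, smooth muscle cells lay down concentric elastic lamellae that let the wall recoil with each beat, whereas the myocardium holds thinner elastic fibers around vessels, in the epicardium and in the endocardium.

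Values are log2 of the authors' normalized signal plus 1, on which a difference of 1 is 2-fold, and differences were tested with limma over all genes, with Benjamini-Hochberg adjusted p-values (calls at 0.05). All 8 measured genes were well above background on all 23 arrays and none of their probes was saturated, so none of their differences is a bound. Between 58.6% and 79.8% of all probes were well above background on an array, and the number of arrays limits the precision. The arrays lie in 2 rows on their slides, and this share was 72.6% to 79.8% in row 1 and 58.6% to 69.3% in row 2. Row 1 held 3 of the LA arrays but only 1 PV and 1 SA array. Levels of different genes were read by different probes and are not compared with each other.

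PA had the highest mean of the 6 regions for all 8 genes. The excess of PA over the mean of the remaining 5 regions ran from 0.99 (*Fbln1*) to 4.81 (*Eln*) on the log2 scale, with a median of 2.74 over the 8 genes against 0.05 over all genes tested. All 8 passed the test as higher in PA, where 31.4% of all genes did. For 7 of the 8, every PA array lay above each of the 19 others, a pattern that 16.9% of all genes showed, and *Fbln1* was the exception. The F-test among the 6 regions called all 8, with adjusted p-values from 2.6e-12 to 8.4e-05, against 64.4% of all genes.

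**Figure D1:**
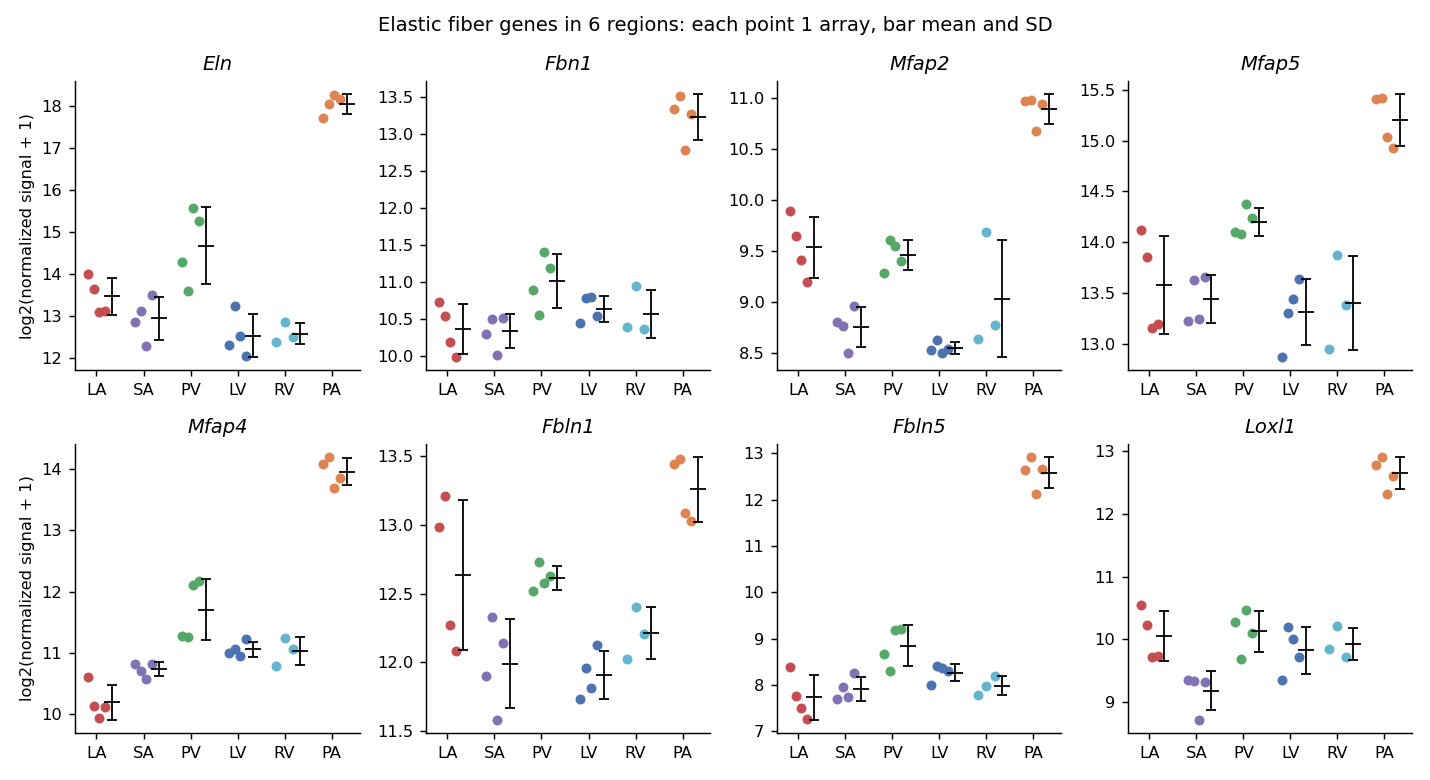
Log2 of normalized signal plus 1 (vertical axis) of the 8 measured elastic fiber genes in 6 regions (horizontal axis), each point being 1 array and each bar the mean with its SD. The PA arrays are above all other arrays in every panel but that of *Fbln1*, where LA arrays reach 13.21 and the lowest PA array is at 13.03.

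*Eln*, which encodes the tropoelastin monomer, showed the largest difference of the 8. The 4 PA arrays were at 17.71, 18.04, 18.25 and 18.16. PV was at 14.28, 13.58, 15.56 and 15.25, and LA at 14.00, 13.64, 13.10 and 13.11. The lowest PA array was above the highest of the others, PV replicate 3, while PV and LA overlapped because PV replicate 2 lay below LA replicates 1 and 2. SA was at 12.85, 13.12, 12.29 and 13.48, LV at 12.31, 13.23, 12.52 and 12.04, and RV at 12.37, 12.85 and 12.49. These 3 regions overlapped one another. The PA mean was 18.04 ± 0.24 (SD, n = 4), and PA exceeded the mean of the other regions 28-fold (log2 difference 4.81, SE 0.28, adjusted p = 9.61e-12, limma). PV had the widest spread of any region for any of the 8 genes, at 14.67 ± 0.91 (SD, n = 4).

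Of the microfibril genes, *Fbn1* was 6.26-fold higher in PA (log2 difference 2.65, SE 0.16, adjusted p = 1.44e-11). Its PA arrays were between 12.80 and 13.52, and the 19 others between 9.99 and 11.42. Outside PA the means of *Fbn1* were 10.34 in SA, 10.37 in LA, 10.57 in RV, 10.65 in LV and 11.02 in PV. *Mfap2* was 3.53-fold higher in PA (log2 difference 1.82, SE 0.14, adjusted p = 7.33e-10), with PA at 10.97, 10.98, 10.68 and 10.94. Here LA came second, at 9.89, 9.65, 9.42 and 9.20, and LV was both the lowest and the tightest region, at 8.53, 8.63, 8.50 and 8.54. RV replicate 2, at 9.69, was far from RV replicates 1 and 3, at 8.64 and 8.77. *Mfap5* was 3.06-fold higher in PA (log2 difference 1.62, SE 0.18, adjusted p = 1.24e-07), with PA between 14.93 and 15.43 and all other arrays between 12.87 and 14.38. The probe of *Mfap5* is spotted 10 times on the array, and its value is the mean of those spots.

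*Mfap4* encodes a secreted glycoprotein that binds elastin, fibrillin and collagen. It was 8.09-fold higher in PA (log2 difference 3.02, SE 0.15, adjusted p = 7.39e-13). PA was at 14.08, 14.20, 13.69 and 13.86, PV at 11.28, 11.26, 12.11 and 12.17, and LA at 10.60, 10.13, 9.93 and 10.11. LA was the lowest region of all for this gene and no LA array reached a PV or LV array. SA lay between 10.58 and 10.82, LV between 10.94 and 11.22, and RV between 10.78 and 11.24.

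The 2 measured fibulins differed in the size of the change. *Fbln5*, which tethers tropoelastin to microfibrils and to integrins on the cell surface, was 21.7-fold higher in PA (log2 difference 4.44, SE 0.18, adjusted p = 3.59e-14), with PA at 12.65, 12.93, 12.12 and 12.65. The next region was PV, at 8.68, 8.30, 9.19 and 9.21. LA was lowest, at 8.40, 7.77, 7.49 and 7.27, with SA between 7.70 and 8.26, RV between 7.79 and 8.20 and LV between 8.01 and 8.41. *Fbln1*, a fibulin of basement membranes and elastic tissue, was 1.98-fold higher in PA (log2 difference 0.99, SE 0.16, adjusted p = 2.38e-05). PA was at 13.44, 13.49, 13.09 and 13.03, and LA at 12.98, 13.21, 12.27 and 12.09. LA replicate 2 was therefore above PA replicates 3 and 4. PV was at 12.52, 12.73, 12.58 and 12.63, RV between 12.02 and 12.40, SA between 11.58 and 12.33 and LV between 11.74 and 12.13. *Fbln1* has 2 probes, and the values above are of the brighter one, A_44_P1082923. The dimmer probe of *Fbln1*, A_42_P801831, gave a PA difference of 0.38 (SE 0.17, adjusted p = 0.0555), which did not pass the test, and 0.02 between PA and PV (adjusted p = 0.94). Its means were 11.03 in PA, 11.01 in PV and 10.77 in LA. The call for *Fbln1* in PA thus rests on 1 of its 2 probes.

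*Loxl1*, the cross-linking enzyme that fibulin-5 binds, was 7.11-fold higher in PA (log2 difference 2.83, SE 0.17, adjusted p = 2.07e-11). PA was at 12.78, 12.91, 12.31 and 12.61. LA was at 10.54, 10.23, 9.73 and 9.73, PV at 10.27, 9.69, 10.46 and 10.10, LV at 9.36, 10.20, 10.01 and 9.72, and RV at 9.84, 10.21 and 9.72. These 4 regions overlapped. SA was the lowest region, at 9.35, 9.33, 8.72 and 9.33, and no SA array reached the lowest LV array.

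RefSeq promoter windows of the rat assembly GRCr8 were found for 6 of the 10 genes (*Fbn1*, *Fbln2*, *Fbln5*, *Mfap2*, *Mfap5* and *Loxl1*). The 250 bases before the start are shown for the 2 measured genes with a window that differed most in PA, *Fbln5* at chr6:126742707-126742956 (minus strand) and *Loxl1* at chr8:67612225-67612474 (minus strand), and for the one that differed least, *Mfap5* at chr4:157399669-157399918 (plus strand). Each is written 5′ to 3′ in the direction of the gene. Capitals mark CAGAC, the SMAD-binding core of TGF-β signaling, and CATTCC, the element bound by TEAD factors, on either strand.
Fbln5: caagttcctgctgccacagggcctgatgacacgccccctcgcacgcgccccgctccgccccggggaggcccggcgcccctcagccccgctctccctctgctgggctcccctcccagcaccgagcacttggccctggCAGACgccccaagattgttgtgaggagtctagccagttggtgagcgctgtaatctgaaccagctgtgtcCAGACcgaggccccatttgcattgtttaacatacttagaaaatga
Loxl1: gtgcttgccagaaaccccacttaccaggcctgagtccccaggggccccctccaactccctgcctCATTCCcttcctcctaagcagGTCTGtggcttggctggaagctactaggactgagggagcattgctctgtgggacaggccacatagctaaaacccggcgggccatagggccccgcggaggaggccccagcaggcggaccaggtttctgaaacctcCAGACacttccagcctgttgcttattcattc
Mfap5: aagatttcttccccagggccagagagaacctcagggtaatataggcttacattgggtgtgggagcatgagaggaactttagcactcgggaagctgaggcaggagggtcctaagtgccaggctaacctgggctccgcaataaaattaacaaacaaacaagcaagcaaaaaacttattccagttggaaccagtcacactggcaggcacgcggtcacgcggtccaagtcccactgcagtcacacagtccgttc
In the *Fbln5* window CAGAC began 114 and 45 bases before the start. The *Loxl1* window held it 165 bases (on the other strand) and 31 bases before the start, and CATTCC 186 bases before it. Neither was found in the *Mfap5* window. CAGAC was in 4 of the 6 windows and in 42.9% of all 33469 windows of this length, and CATTCC in 1 of 6 and 12.1%. The GC box GGGCGG was in 3 of 6 windows (30.5% of all), and the E-box CANNTG, which reads the same on both strands, in 3 of 6 (65.5% of all). None of the 6 held a TATA box TATAAA (12.9% of all), the AP-1 element TGANTCA (6.34%) or a CArG box (1.5%). All motifs were searched on both strands, a base could belong to more than 1 motif, and a match describes the letters only.

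Between the great vessels themselves, all 8 genes were higher in PA than in PV, where 29.7% of all genes were, and for all 8 every PA array was above every PV array (26.8% of all genes). *Fbln5* differed 13.4-fold and *Eln* 10.4-fold (adjusted p = 5.07e-11 and 1.45e-07), followed by *Loxl1* at 5.75-fold, *Mfap4* at 4.77-fold, *Fbn1* at 4.65-fold and *Mfap2* at 2.69-fold. *Mfap5* was 2-fold higher (adjusted p = 0.000942) and *Fbln1* 1.56-fold (0.64, SE 0.21, adjusted p = 0.0134), the latter not called without PV replicates 3 and 4 together (adjusted p = 0.0636). On the dimmer probe of *Fbln1* the difference was 0.02 (adjusted p = 0.94), and its PA arrays (10.76 to 11.42) overlapped its PV arrays (10.69 to 11.26). The call and the separation of *Fbln1* thus rest on 1 of its 2 probes. The difference in PA was present on each of the 3 slides and in both rows of arrays. For *Eln*, PA minus the mean of the other regions was 5.15, 4.71 and 4.63 within slides 1, 2 and 3.

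Cell type markers differed along with these genes. All 6 smooth muscle markers (*Myh11*, *Acta2*, *Tagln*, *Cnn1*, *Smtn* and *Lmod1*) were higher in PA, with the log2 of their summed signal between 18.87 and 19.11 in PA, 15.59 and 16.08 in PV, 15.37 and 15.76 in SA, and 14.65 and 14.93 in LA. Of 6 fibroblast markers measured, 4 were higher and 2 lower in PA, and their summed signal was 18.53 to 18.73 in PA, 17.76 to 18.41 in PV and 16.33 to 17.01 in LA. All 5 markers of working cardiomyocytes were lower in PA, at 16.96 to 17.59 against 20.39 to 20.74 in LA, yet all 5 stayed well above background on every PA array. In PV they were at 20.81 to 20.92, inside the range of the heart regions. All 4 atrial myocyte markers were well above background on every PV array, as they were on every array of the other regions. The log2 of their summed signal was 20.05 to 20.55 in PV and 20.19 to 20.44 in LA. Of the 5 endothelial markers 4 were lower in PA, and all 3 adipocyte markers were higher. All 4 atrial and all 3 ventricular myocyte markers, 3 of 4 pacemaker, 2 of 3 Schwann cell and 1 of 3 mesothelium markers were lower, and 1 marker each of pacemaker cells, cartilage, lung epithelium and macrophages was higher. The PA arrays were uneven in the summed myocyte signals. In replicates 1 to 4 the atrial sum was 15.14, 11.60, 11.95 and 10.67, and the ventricular sum 13.54, 9.93, 13.38 and 14.00. Against PV alone, all 6 smooth muscle, 3 of 6 fibroblast, 3 of 4 lung epithelium, 2 of 3 macrophage and 1 of 3 adipocyte and cartilage markers were higher in PA. All 5 working cardiomyocyte, all 4 atrial myocyte and all 3 Schwann cell markers were lower, with 3 of 5 endothelial, 2 of 6 fibroblast and 1 of 3 mesothelium markers. Of the ventricular myocyte markers 1 was higher and 2 lower, and of the pacemaker markers 1 was higher and 3 lower. The part of these cell types in the differences of the elastic fiber genes was not tested.

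**Figure D2:**
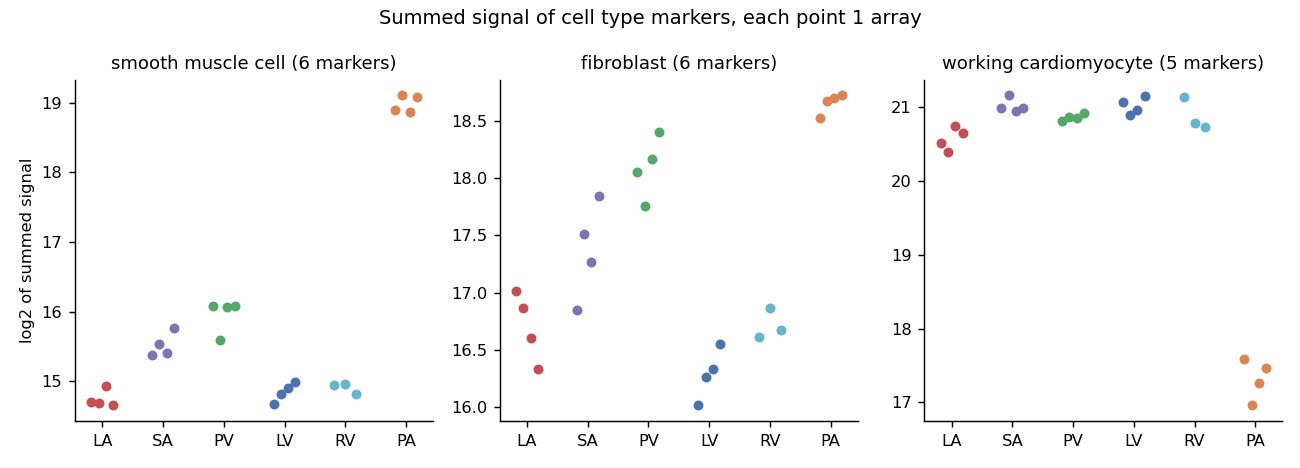
Log2 of the summed normalized signal of smooth muscle, fibroblast and working cardiomyocyte markers (vertical axes) in 6 regions (horizontal axes), each point being 1 array. Smooth muscle markers are highest in PA, at 18.87 to 19.11, and cardiomyocyte markers lowest there, at 16.96 to 17.59.

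Below PA the order of the regions was not the same from gene to gene. PV was second for *Eln*, *Fbn1*, *Fbln5*, *Mfap4*, *Mfap5* and *Loxl1*, and LA for *Fbln1* and *Mfap2*. PV was second for 16.1% of all genes. For *Eln*, *Fbln1*, *Mfap4* and *Mfap5* every PV array was above all 7 ventricle arrays, 4 of the 8 genes where 10.5% of all genes showed this. The lowest region was LV for *Eln*, *Fbln1*, *Mfap2* and *Mfap5*, SA for *Fbn1* and *Loxl1*, and LA for *Fbln5* and *Mfap4*. On the dimmer probe of *Fbln1*, PV was second (mean 11.01) and SA lowest (10.19), and its lowest PV array (10.69) was below its highest RV array (10.99). Of the 40 steps between neighbouring regions in these orders, 11 passed the test. They were the step from PA to the next region for all 8 genes, from PV to LA for *Eln*, from PV to LV for *Mfap4* (log2 difference 0.65, SE 0.19, adjusted p = 0.0153) and from LV to SA for *Loxl1* (0.64, SE 0.22, adjusted p = 0.0416). The other neighbours did not pass the test, and their arrays overlapped except for *Fbln1* in PV (12.52 to 12.73) and RV (12.02 to 12.40), which differed by 0.41 (SE 0.23, adjusted p = 0.209). With 1 array left out 9 to 14 steps passed. No share over all genes is given for these steps, for LA as the second region or for the lowest region, so these counts are a description.

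The vein was compared with the atrium it opens into, since the PV wall of the rat carries a sleeve of cardiac muscle. Of the 8 genes, 4 were higher in PV than in LA and none was lower with limma (5 and 0 at an unadjusted p under 0.05), where 6.99% of all genes were higher. *Mfap4* was 2.85-fold higher (log2 difference 1.51, SE 0.19, adjusted p = 3.84e-05), and it alone of the 8 had all PV arrays above all LA arrays, as 8.11% of all genes had. *Fbln5* was 2.16-fold higher (1.11, SE 0.24, adjusted p = 0.00336), *Eln* 2.31-fold (1.21, SE 0.36, adjusted p = 0.0324) and *Fbn1* 1.57-fold (0.65, SE 0.21, adjusted p = 0.0409). For *Mfap5* the difference was 0.62 (SE 0.23, adjusted p = 0.0854), and it passed without LA replicate 1 (0.80, adjusted p = 0.0279). *Fbln1* (-0.02, SE 0.21), *Mfap2* (-0.08, SE 0.18) and *Loxl1* (0.07, SE 0.22) had nearly equal means. The dimmer probe of *Fbln1* gave 0.24 (SE 0.21, adjusted p = 0.566).

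These PV differences rested on few arrays. PV replicates 3 and 4 were high for *Eln*, *Fbn1*, *Fbln5* and *Mfap4*, and LA replicates 3 and 4 were low for all 8 genes. The call for *Eln* was lost without any one of LA replicate 2, 3 or 4 or PV replicate 3 or 4 (log2 difference 0.91 to 1.27, adjusted p = 0.0525 to 0.123), and that for *Fbn1* without any of these or PV replicate 1 (0.52 to 0.71, adjusted p = 0.052 to 0.14). Without PV replicates 3 and 4 together, *Eln* differed by 0.47 (adjusted p = 0.551), *Fbn1* by 0.36 (adjusted p = 0.468) and *Fbln5* by 0.75 (adjusted p = 0.12). *Mfap4* kept its call with each array left out. Within rows of arrays, *Eln* differed by 0.18 in row 1 and 1.40 in row 2, and *Mfap4* by 1.05 and 1.72. Row 1 held 1 PV array (replicate 2) and row 2 held 1 LA array (replicate 2). With the row as a block, *Eln* differed by 1.04 (adjusted p = 0.081) and *Fbn1* by 0.53 (adjusted p = 0.103). Of the smooth muscle markers 5 of 6 and of the fibroblast markers 3 of 6 were higher in PV than in LA, as were all 3 Schwann cell, 3 of 4 pacemaker, 2 of 3 adipocyte and 1 of 5 working cardiomyocyte markers. All 3 mesothelium markers and 1 of 3 ventricular myocyte markers were lower. The part of these cell types in the result was not tested.

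**Figure D3:**
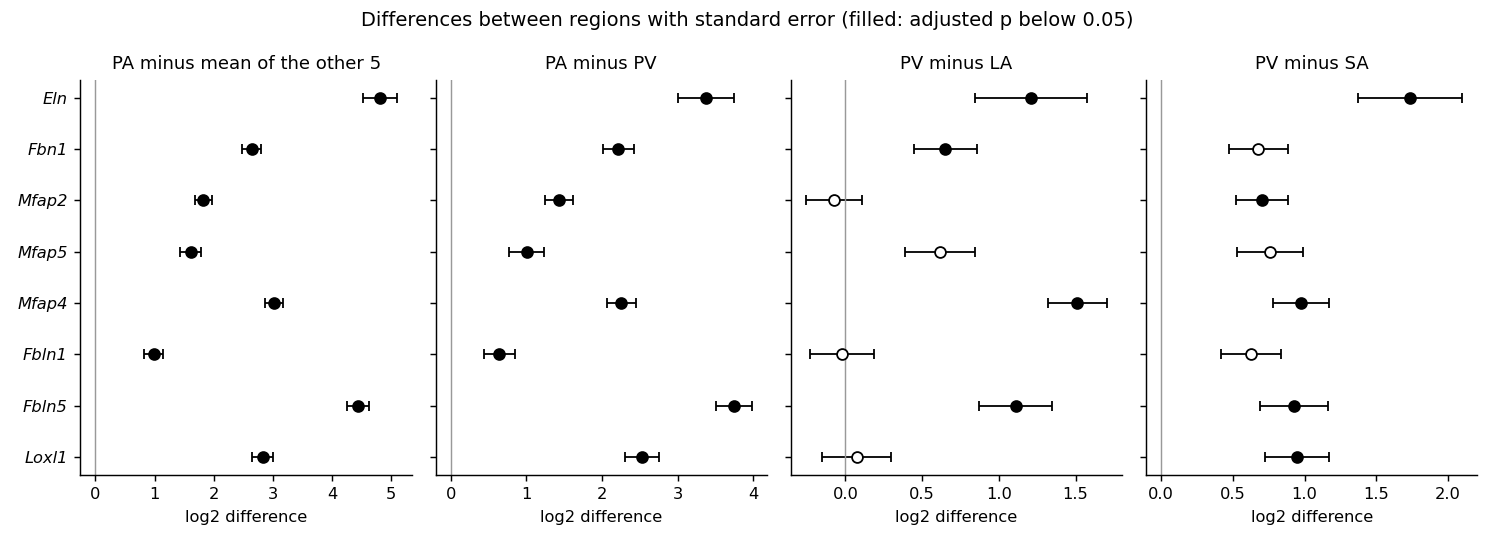
Log2 differences (horizontal axes) of the 8 genes (vertical axis) of PA from the remaining 5 regions, PA from PV, PV from LA, and PV from SA. Bars are standard errors of the limma fit, and filled points passed the test at an adjusted p below 0.05, which all 8 did in both PA panels, 4 for PV against LA and 5 for PV against SA.

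SA, the nodal tissue where the heartbeat starts, had lower levels of part of the set. All 8 genes had every PV array above every SA array, a pattern of 5.95% of all genes, and 5 of the 8 passed the test as higher in PV, where 2.71% of all genes did. *Eln* was 3.33-fold higher in PV than in SA (log2 difference 1.74, SE 0.36, adjusted p = 0.0132), *Mfap4* 1.97-fold (0.97, SE 0.19, adjusted p = 0.00896), *Loxl1* 1.93-fold (0.95, SE 0.22, adjusted p = 0.0258), *Fbln5* 1.9-fold (0.93, SE 0.24, adjusted p = 0.0361) and *Mfap2* 1.63-fold (0.70, SE 0.18, adjusted p = 0.0392). *Fbn1*, *Fbln1* and *Mfap5* differed by 0.68, 0.63 and 0.76 and did not pass (adjusted p = 0.0804, 0.115 and 0.077). The dimmer probe of *Fbln1* did pass (0.82, adjusted p = 0.0421), as did *Fbn1* without PV replicate 2 (0.83, adjusted p = 0.0348) and *Mfap5* with a trend in the prior variance (adjusted p = 0.0465). The count of 5 was 1 without PV replicate 4 or without SA replicate 3, 2 without PV replicate 3 or SA replicate 1, 3 without SA replicate 2, and 0 without PV replicates 3 and 4 together. It was also 0 when only the arrays of the 2 regions entered the fit, and 7 without LA replicates 1 and 2 together or LA replicates 3 and 4 together. The call for *Fbln5* was lost with the replicate number as a block (adjusted p = 0.0641). Under quantile normalization the calls for *Fbln5* (adjusted p = 0.0527) and *Mfap2* (adjusted p = 0.0548) were lost. Of the cell type markers, 4 of 6 of smooth muscle, 3 of 6 of fibroblasts, 2 of 3 of Schwann cells and 1 of 3 of adipocytes were higher in PV than in SA, and 1 of 4 pacemaker markers was lower. The log2 of the summed Schwann cell signal was 11.88 to 12.35 in PV and 11.03 to 11.34 in SA, and that of fibroblast markers 17.76 to 18.41 and 16.85 to 17.85. Their part in the differences was not tested.

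Against LA, 3 genes were lower in SA and none was higher with limma (3 and 1 at an unadjusted p under 0.05), where 8.26% of all genes were lower. *Loxl1* was 1.83-fold lower in SA (log2 difference -0.88, SE 0.22, adjusted p = 0.0121), *Mfap2* 1.72-fold (-0.78, SE 0.18, adjusted p = 0.00639) and *Fbln1* 1.57-fold (-0.65, SE 0.21, adjusted p = 0.0419). For *Loxl1* and *Mfap2* every SA array was below every LA array, as held for 12% of all genes. *Mfap4* had the opposite sign, at 0.54 (SE 0.19, adjusted p = 0.0714), and it passed as higher in SA with the slide as a block (0.60, adjusted p = 0.0447), with a trend in the prior variance (adjusted p = 0.0484), without LA replicate 1 (0.67, adjusted p = 0.0335) and without PV replicates 3 and 4 together (adjusted p = 0.0158). *Eln* was at -0.53 (SE 0.36, adjusted p = 0.396). *Mfap2* kept its call with each array left out. The call for *Loxl1* was lost without SA replicate 3 (-0.72, adjusted p = 0.0514) or LA replicate 1 (-0.71, adjusted p = 0.0513). The call for *Fbln1* was lost without any one of LA replicate 1 or 2, LV replicate 2, PV replicate 3 or 4, or SA replicate 1, 3 or 4 (log2 difference -0.70 to -0.46, adjusted p = 0.0501 to 0.159), with the slide as a block (adjusted p = 0.0636) and on its dimmer probe (-0.58, adjusted p = 0.077). Without LA replicates 1 and 2 together none of the 3 passed (*Mfap2* -0.55, adjusted p = 0.146). Within rows of arrays *Fbln1* differed by -0.11 in row 1 and -1.33 in row 2. Of the cell type markers, 5 of 6 of smooth muscle, 3 of 4 of pacemaker cells, 1 of 3 of Schwann cells and 1 of 5 of working cardiomyocytes were higher in SA than in LA. All 3 markers of mesothelium and 1 of 3 of ventricular myocytes were lower, and of the fibroblast markers 3 were higher and 3 lower. The log2 of the summed mesothelium signal was 12.09 to 12.98 in SA and 13.97 to 14.30 in LA, and that of fibroblast markers 16.85 to 17.85 and 16.33 to 17.01. Their part in the result was not tested.

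LA, SA and PV together were set against the ventricles. *Eln* was 2.2-fold higher in the first 3 regions (log2 difference 1.14, SE 0.25, adjusted p = 0.000929) and *Mfap2* 1.38-fold (0.46, SE 0.12, adjusted p = 0.00526), so that 2 of 8 passed, where 18.6% of all genes were higher. The 3 regions did not pass alike when each was set against a ventricle. For *Eln*, PV exceeded LV by 2.14 and RV by 2.10 (adjusted p = 0.000141 and 0.000489), LV and RV minus LA were -0.93 and -0.89 (adjusted p = 0.0555 and 0.107), and SA minus LV and RV was 0.41 and 0.36 (adjusted p = 0.479 and 0.592). For *Mfap2*, PV exceeded LV (0.91, adjusted p = 0.000676) and LV was below LA (-0.99, adjusted p = 0.000274). Against RV neither passed (PV minus RV 0.43, adjusted p = 0.124, and RV minus LA -0.50, adjusted p = 0.0663). The *Mfap2* mean of SA was 8.76, between those of LV (8.55) and RV (9.04). In the pooled comparison *Fbln1* (0.35, adjusted p = 0.0519) and *Mfap5* (0.38, adjusted p = 0.0554) lay at the threshold, and both passed without LA replicate 3, LA replicate 4, LV replicate 4 or RV replicate 2, which gave 4 genes. On the dimmer probe of *Fbln1* the difference was 0.01 (SE 0.14, adjusted p = 0.952). *Fbn1*, *Fbln5*, *Mfap4* and *Loxl1* differed by -0.03, 0.04, -0.17 and -0.08. For *Mfap4* the regions went in opposite directions, with LV and RV above LA by 0.87 and 0.83 (adjusted p = 0.00166 and 0.00546) and below PV, which exceeded them by 0.65 and 0.68 (adjusted p = 0.0153 and 0.022). Of the other genes, *Mfap5* was higher in PV than in LV and RV (0.89 and 0.80, adjusted p = 0.00544 and 0.0221) and *Fbln5* in PV than in RV (0.86, adjusted p = 0.0178). *Fbln1* was lower in LV than in LA (-0.73, adjusted p = 0.0102) and higher in PV than in LV (0.71, adjusted p = 0.0135). On its dimmer probe neither passed (-0.26, adjusted p = 0.4, and 0.49, adjusted p = 0.0892). *Loxl1* was lower in SA than in LV and RV (-0.64 and -0.74, adjusted p = 0.0416 and 0.0349). No such pair passed for *Fbn1*. Without PV replicates 3 and 4 together *Mfap4* passed as lower in the pooled comparison (-0.31, adjusted p = 0.0212). All 4 atrial myocyte markers, 5 of 6 smooth muscle, 3 of 6 fibroblast, 2 of 3 Schwann cell, 2 of 3 adipocyte and 2 of 3 mesothelium markers were higher in LA, SA and PV together, as was 1 marker each of pacemaker cells and working cardiomyocytes. All 3 ventricular myocyte and all 3 macrophage markers were lower, with 4 of 5 endothelial markers and 1 marker each of fibroblasts, mesothelium and lung epithelium. The log2 of the summed endothelial signal was 15.01 to 15.39 in LA, SA and PV and 15.88 to 16.16 in the ventricles. The part of these cell types in the differences was not tested. None of the 8 genes passed the test between LV and RV with limma, where 0.522% of all genes did. At an unadjusted p under 0.05 there was 1, *Mfap2*, with a log2 difference of -0.48 and an adjusted p of 0.352, and RV replicate 2 was the array that stood high. No other tool was run for this comparison.

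On some arrays most of the 8 genes deviated from the mean of their region in the same direction. In LA, replicate 1 was above the regional mean for all 8 genes, by 0.35 to 0.66, and replicate 2 for 7 of them. LA replicates 3 and 4 were below it for all 8, by means of -0.28 and -0.36. SA replicate 4 was above its region's mean for all 8 genes and SA replicate 3 below it for all 8. RV replicate 2 and LV replicate 2 were each above for 7 genes, and RV replicate 1 and LV replicate 1 for none. In PV, replicate 3 was above for 7 genes and replicate 4 for 6, with *Eln* of replicate 2 lowest at -1.09. In PA, replicates 1 and 2 were above for 7 genes and replicate 3 for 1. The genes were split on LV replicates 3 and 4 and PA replicate 4, with 4 of 8 above the mean, and on SA replicate 1, with 3. Of the remaining arrays, SA replicate 2 was above for 7 genes, PV replicate 2 and RV replicate 3 for 2 and PV replicate 1 for 1. Of all genes tested, 43.4% to 60.6% were above the regional mean on an array, with 45.1% on LA replicate 1 and 46.5% on SA replicate 4.

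**Figure D4:**
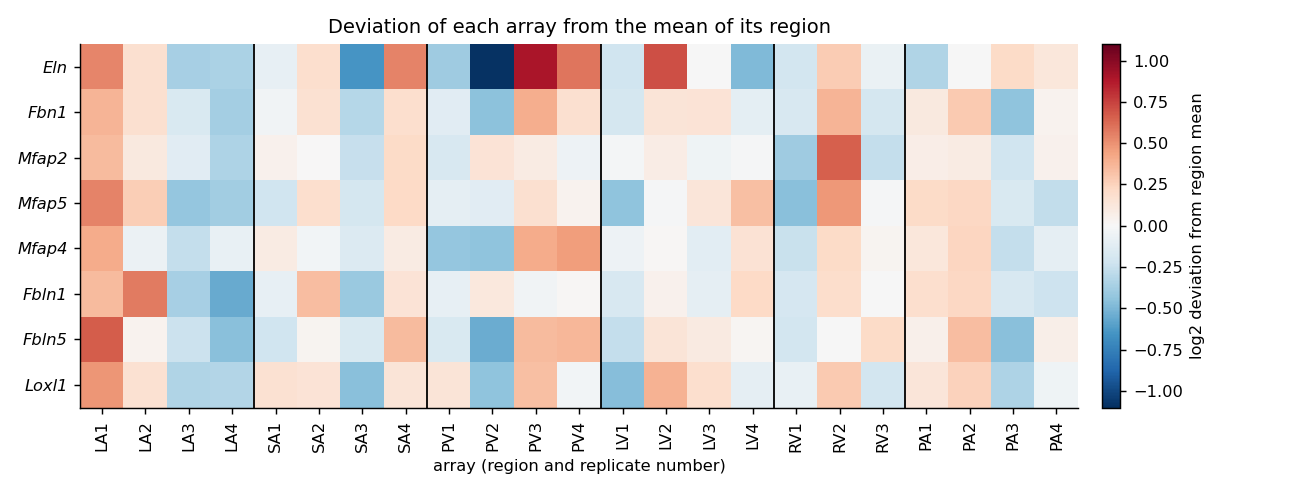
Log2 deviation of each array (horizontal axis, region and replicate number) from the mean of its own region, for the 8 genes (vertical axis), in red above and in blue below the mean. LA replicate 1 and SA replicate 4 are above their means for all 8 genes, and LA replicates 3 and 4 and SA replicate 3 below for all 8.

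Over the 28 pairs of the 8 genes, Pearson's r of these deviations was 0.311 to 0.885 with a median of 0.668 across the 23 arrays. Over all pairs of the 16089 genes tested the median was 0.0106, and 0.944% of pairs were at 0.668 or above. Without removing the regional means it was 0.672 to 0.989 with a median of 0.911, and over the 19 arrays outside PA 0.0629 to 0.888 with a median of 0.651. The genes of a pair were read on the same arrays and share their tissue piece and scaling factor, and the values are a description. The summed fibroblast markers of LA were at 17.01, 16.86, 16.60 and 16.33 in replicates 1 to 4, which is the order of the mean deviation of the 8 genes (0.46, 0.18, -0.28 and -0.36). The smooth muscle markers of LA did not follow it, at 14.70, 14.69, 14.93 and 14.65. In RV the orders were the same as well, with fibroblast markers at 16.61, 16.86 and 16.67 and mean deviations of -0.24, 0.31 and -0.07. Atrial myocyte (14.16, 15.73 and 15.27), Schwann cell (10.64, 11.20 and 10.97) and macrophage markers (12.82, 13.36 and 12.96) had this order in RV too. The remaining marker lists did not, with smooth muscle at 14.94, 14.96 and 14.81. In the other regions the orders of fibroblast markers and mean deviation differed. SA replicate 3, the lowest of its region for the 8 genes (-0.33), had fibroblast markers at 17.27, above SA replicate 1 (16.85). PV replicate 3 had the highest mean deviation of PV (0.33) and replicate 4 (0.19) the highest fibroblast markers, at 18.17 and 18.41. LV replicate 2 was highest for the 8 genes (0.19) with fibroblast markers at 16.26, below the 16.55 of LV replicate 4. PA replicate 4 had the highest fibroblast markers of PA (18.73) and a mean deviation of -0.05. The part of tissue composition in this shared variation was not tested.

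Likeness was searched among 13096 genes detected above background throughout at least 1 region. The pattern over the 23 arrays most like that of *Eln* was that of *Bgn* (r = 0.983), which encodes the proteoglycan biglycan, and then *Ppic* (0.978) and *Ece2* (0.976). These were also the nearest 3 over the 19 arrays outside PA, with r from 0.904 to 0.907. For *Mfap4* it was *Ltbp2* (0.986), a latent TGF-β binding protein found on microfibrils, and for *Fbln5* it was the integrin subunit gene *Itgb1* (0.992). *Fbn1* was most like *Cap1* (0.984), followed by *Pls3* (0.983) and the collagen gene *Col5a1* (0.98), which led outside PA (0.887). *Loxl1* was most like *Ptgis* (0.98), prostacyclin synthase, and *Mfap5* most like *Ctsk* (0.961), which encodes the elastin-degrading protease cathepsin K. *Fbln1* and *Mfap2* shared their nearest gene, *Cp* (ceruloplasmin, 0.928 and 0.965), and their second, *Tspan5* (0.914 and 0.962), and outside PA the nearest of *Fbln1* was *Prelp* (0.936). Without the 4 PA arrays the highest r was lower for each of the 8 genes but *Fbln1*, where it was 0.936 against 0.928 with another nearest gene. These r are a description of these arrays.

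Other genes of elastic fiber assembly and turnover were taken from a list of 41 partners, of which 35 had a probe. Against the mean of the remaining regions, 23 of the 35 were higher and 2 lower in PA, with a median log2 difference of 0.98, where 31.4% of all genes were higher and 27.7% lower. All 9 measured genes of microfibrils and elastogenesis were higher in PA. They include *Ltbp2* (41.8-fold, log2 difference 5.39, SE 0.36, adjusted p = 6.19e-11), the largest of the list, and *Ltbp3* (7.54-fold), *Ltbp1* (6.78-fold) and *Emilin1* (2.81-fold). All 4 further genes of cross-linking were higher, from *Loxl2* (1.9-fold) to *Loxl3* (4.26-fold), among them the copper transporter *Atp7a* (3.15-fold), which supplies lysyl oxidases with their metal. Among 3 further fibulins, *Efemp2* (fibulin-4, which elastin assembly requires) was 10.2-fold higher (log2 difference 3.35, SE 0.07, adjusted p = 3.13e-18), while *Efemp1* and *Hmcn1* did not pass, at 0.11 (SE 0.19) and 0.05 (SE 0.17).

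**Figure D5:**
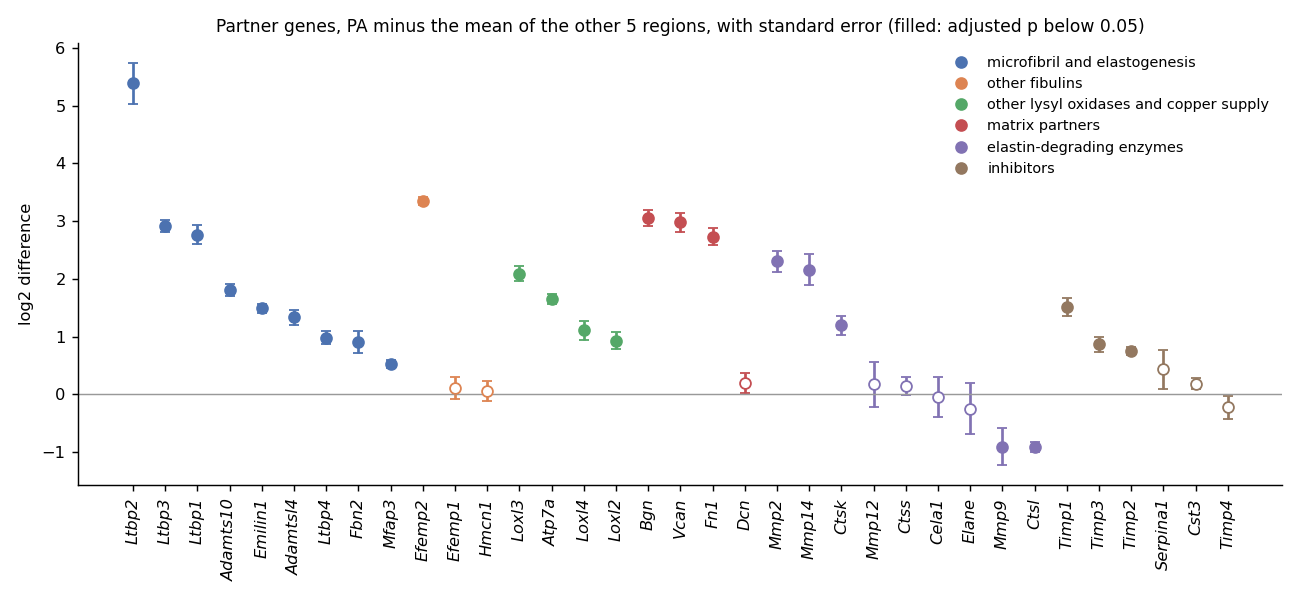
Log2 difference of PA from the mean of the remaining 5 regions (vertical axis) for 35 partner genes (horizontal axis) in 6 roles, with standard errors from the limma fit. Filled points passed the test at an adjusted p below 0.05, 23 of them higher in PA, led by *Ltbp2* at 5.39, and 2 lower.

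Of the matrix partners, the proteoglycans *Bgn* (8.35-fold) and *Vcan* (7.89-fold) and fibronectin, *Fn1* (6.65-fold), were higher in PA, and decorin, *Dcn*, differed by 0.19 (SE 0.18, adjusted p = 0.378). The enzymes that can degrade elastin were mixed. *Mmp2* was 4.93-fold, *Mmp14* 4.46-fold and *Ctsk* 2.29-fold higher in PA, and *Ctsl* was lower (log2 difference -0.91, SE 0.09, adjusted p = 1.74e-08). *Mmp9* was called lower as well (adjusted p = 0.0195), but it was well above background on no PA array and on 6 arrays in all, so no fold is given. Of 6 inhibitors 3 were higher, *Timp1* (2.86-fold), *Timp3* (1.83-fold) and *Timp2* (1.68-fold).

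Between PV and LA, 5 of the 35 partners were higher and 4 lower, where 6.99% of all genes were higher and 6.51% lower. *Ltbp2* was 4.67-fold (log2 difference 2.22, SE 0.46, adjusted p = 0.00269) and *Efemp2* 1.53-fold higher in PV (0.62, SE 0.09, adjusted p = 0.000194). *Efemp1* and *Hmcn1*, the fibulins that did not pass the test in PA, were lower in PV than in LA, by -1.51 (SE 0.24, adjusted p = 0.000285) and -1.84 (SE 0.22, adjusted p = 2.14e-05), and *Emilin1* and *Ltbp1* by -0.85 and -0.99. Between SA and LA, 8 of the 35 were lower and 1, *Timp4*, was higher, where 8.26% of all genes were lower and 7.03% higher. *Hmcn1* differed by -2.50, *Ltbp1* by -2.31 and *Efemp1* by -1.78 on the log2 scale. Of the partners 10 were higher in PV than in SA and none was lower with limma (17 and 0 at an unadjusted p under 0.05), where 2.71% of all genes were higher. Against the ventricles, 11 were higher and 8 lower in LA, SA and PV together, where 18.6% of all genes were higher and 22.3% lower. *Fn1* was among the higher ones (0.85, SE 0.12, adjusted p = 1.81e-05). *Cela1* was called higher and *Mmp12* and *Mmp9* lower, but only 8, 5 and 6 arrays read them well above background, so no fold is given. Of the lower partners that were well above background on all 23 arrays, *Fbn2* differed most (-1.04, SE 0.16, adjusted p = 3.47e-05), named after its value was seen. None of the 35 passed the test between LV and RV with limma, and 4 had an unadjusted p under 0.05 (*Cst3* higher, and *Emilin1*, *Efemp1* and *Efemp2* lower in LV, chosen after their values were seen).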

How the data were processed

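RNA of 23 rat samples was labeled with Cy3 and hybridized to 1-color Agilent rat arrays, which were read with Agilent Feature Extraction 11.0.1.1 per the submitters' processing notes. Per the file headers, the scanner files hold background-subtracted signal intensities on a linear scale. The authors' deposited normalized intensities, used for all main results, are these signals times 1 factor per array (0.881 to 1.52), which sets a common 90th percentile.

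Of 45598 probes, 45440 had a value on every array, and 21047 of these were named through RefSeq accessions. Each gene took its brightest probe per array, and values were log2-transformed after adding a pseudocount of 1, so that folds of dim genes are understated. Genes above 4 on at least 1 array (16089) were tested with limma 3.58.1 in R 4.3.3 (6 regional means, 17 contrasts and an F-test), in place of the analysis of variance of the methods, with Benjamini-Hochberg adjustment over all genes. A simulation that shifted 200 genes by 1 on the log2 scale had 72.5% of them called for PA against the other regions and 66% for PV against LA. It drew independent noise and changed no other gene, so these shares are not detection rates for the data.

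Same-numbered samples of different regions did not deviate together (mean r = -0.018 over 55 pairs), so the numbers were not taken to pair them. The mean r was 0.0887 for 71 pairs of arrays on the same slide (-0.0413 for other pairs) and 0.0798 for 107 pairs in the same row (-0.0742 for other pairs), and both were tried as blocks. No arrays were identical (highest r = 0.989). Alternatives were other scalings, background correction by normexp (offset 50, on the median signals), a pseudocount of 16, other filters, the probe with the highest mean, blocks for replicate number, slide and row, a trend in the prior variance, only the arrays compared, and each array left out. Leaving out pairs of LA or PV arrays was chosen after seeing the data. The rule for named genes took all members with a probe, the 3 genes most like each member (the text gives the nearest, and others for some members), and of the partners called, up to 4 with the largest change in each direction in PA (2 were called lower) and 2 in each direction against the ventricles. Further partners are examples chosen after their values were seen. Members, lists and these rules were chosen with earlier results of these data known.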

Additional observations from a re-analysis of the deposited data

Results flagged for a closer look

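In 2 of the 40 groups of 4 arrays (8 genes in the 5 regions that have 4), 1 array lay apart from the other 3, its gap to the nearest being more than 0.829 of the range of the group. *Loxl1* in SA replicate 3 was at 8.72, against 9.33 to 9.35 in the other SA arrays (0.964 of the range). *Mfap2* in PA replicate 3 was at 10.68, against 10.94 to 10.98 in the other PA arrays (0.846 of the range). Chance gives about 1 such group in 20, which is the rate seen here.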

How the results depend on the processing

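The 8 genes that differed among the regions, in PA against the remaining regions, and in PA against PV numbered 8 under every alternative run on the gene values, except that 7 differed between PA and PV without PV replicates 3 and 4 together. None passed between LV and RV under any of these. No called difference of the 8 genes changed sign in the comparisons named in this section. Single regions against 1 ventricle and the partner genes one by one were not checked for sign. The count of genes that differ between LA, SA and PV and the ventricles, 2, was 4 with scanner signals at a common 75th percentile, quantile normalization, a filter on well above background, a trend in the prior variance, or without LA replicates 3 and 4 together, and 2 to 4 with 1 array left out. For PV and LA, 4 became 2 with the array row as a block, and 1 with only the arrays of these regions, without PV replicates 3 and 4, or without LA replicates 3 and 4, and 2 to 5 with 1 array left out. No pairing of samples by number was found, and the replicate block gave 2 for PV and LA and moved no other count by over 1.5 times. For SA and LA, 3 became 0 without LA replicates 1 and 2, and 1 to 3 with 1 array left out. For PV and SA, 5 became 3 under quantile normalization and 0 with only the arrays of these regions or without PV replicates 3 and 4, and 1 to 5 with 1 array left out. It became 7 without LA replicates 1 and 2 together or LA replicates 3 and 4 together. Leaving out arrays or regions also leaves fewer arrays to estimate the spread; the cause of the other changes was not tested. No scaling moved the median of all genes in PA by over 0.064.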
